A study of Mus musculus with 3 samples.

Results

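The comparison described here is between macrophages exposed to *Borrelia burgdorferi* lipoproteins (*Bb*LP) for 4 hours (LP4) and for 1 hour (LP1), and it asks which transcripts were switched on or off between the early and the later time. Both libraries hold bone marrow-derived macrophages (BMDMs) of female C3H/HeN mice aged 6-8 weeks, grown in medium conditioned by L929 cells, given 1 µg/mL of *Bb*LP and detached with Accutase. Another library, of cells given PBS and collected at 4 hours (Ctrl) is used only to give levels beside those of the treated cells, since no untreated cells were collected at 1 hour. RNA was counted in single cells by the 10x Chromium 3′ method, in which a unique molecular identifier (UMI) marks each captured transcript. The cells of 3 wells were pooled into each library, so there is 1 library per time, no test was made, and the time, the wells and the library cannot be told apart.

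Barcodes were kept where UMIs and genes each exceeded 500 and the mitochondrial genome gave under 5% of UMIs, 5065 of 5119 barcodes in LP1 and 4670 of 5039 in LP4. UMIs were summed per gene over the kept cells and divided by the library's total, 52475723 UMIs in LP1 and 61402275 in LP4, to give CPM (UMIs per 1000000 UMIs). The genes described are the 7956 of 32285 with at least 10 CPM in 1 of the 2 libraries. At this limit, *Btbd2* entered with 10.0 CPM in LP1 and 6.61 CPM in LP4, and *Sgo2a* with 9.99 and 7.36 CPM did not. Intervals are exact at the 95% level and cover counting error only. The kept cells held a median of 9343 (LP1) and 11784 UMIs (LP4), 43 and 273 barcodes were lost to the mitochondrial limit, and 3 barcodes occurred among the kept cells of both libraries. All 10 macrophage markers checked, among them *Adgre1*, *Csf1r* and *Cd68*, were above 10 CPM in both libraries, with summed levels of 12636 CPM in LP1 and 12399 CPM in LP4. Summed over 10 neutrophil markers the level was 451 CPM in LP1 and 707 CPM in LP4, and cells rich in them numbered 24 and 27; summed over 7 fibroblast markers it was 5.24 and 18.0 CPM, in 3 and 7 such cells.

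Bacterial lipoproteins are sensed at the macrophage surface by Toll-like receptor 2 together with a partner receptor, and the signal passes through the adaptor MyD88 to NF-κB and the MAP kinases. The first transcripts to appear are immediate early genes, which need no new protein and whose RNA is short-lived. Later transcripts often need chromatin opening, newly made transcription factors or secreted interferon, which acts back on the cells through JAK and STAT proteins.

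Between 1 and 4 hours, 696 genes were at least 2-fold higher in LP4 (8.75% of those described) and 601 at least 2-fold lower (7.55%), while 5198 genes (65.3%) lay within 1.5-fold. Every count of list members below is to be read beside these shares, 8.75% higher and 7.55% lower. A gene under 10 CPM in 1 library was described only through the other, which fixed its direction. If it was more than 2-fold under 10 CPM there, the rule also placed it past 2-fold. The shares over all genes include such genes too. The log2 ratio of LP4 to LP1 had a median of -0.06, with 5th and 95th percentiles of -1.21 and 1.45. The larger differences were more often upward. At least 4-fold higher were 233 genes and 4-fold lower 121, at 8-fold the numbers were 101 and 40, and at 32-fold they were 20 and 5. Genes of the higher group took 3.0% of all UMIs in LP1 and 11.8% in LP4, beside 2.98% in Ctrl. Genes of the lower group took 8.53% in LP1, 3.02% in LP4 and 8.65% in Ctrl, of which the unnamed gene *Gm42418* alone made 2.16%, 0.85% and 2.17%. These ratios are relative to all UMIs of a library. A kept LP4 cell held a mean of 13148 UMIs and a kept LP1 cell 10361, so per cell, without scaling, log2 ratios were higher by 0.34. With the 10 CPM minimum applied to the raised LP4 values, 8237 genes were described and the median of all genes moved by 0.36. Of these genes, 1248 were at least 2-fold higher and 321 lower. Among those past 2-fold, 79.5% were higher, beside 53.7% on the CPM scale.

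**Figure D1:**
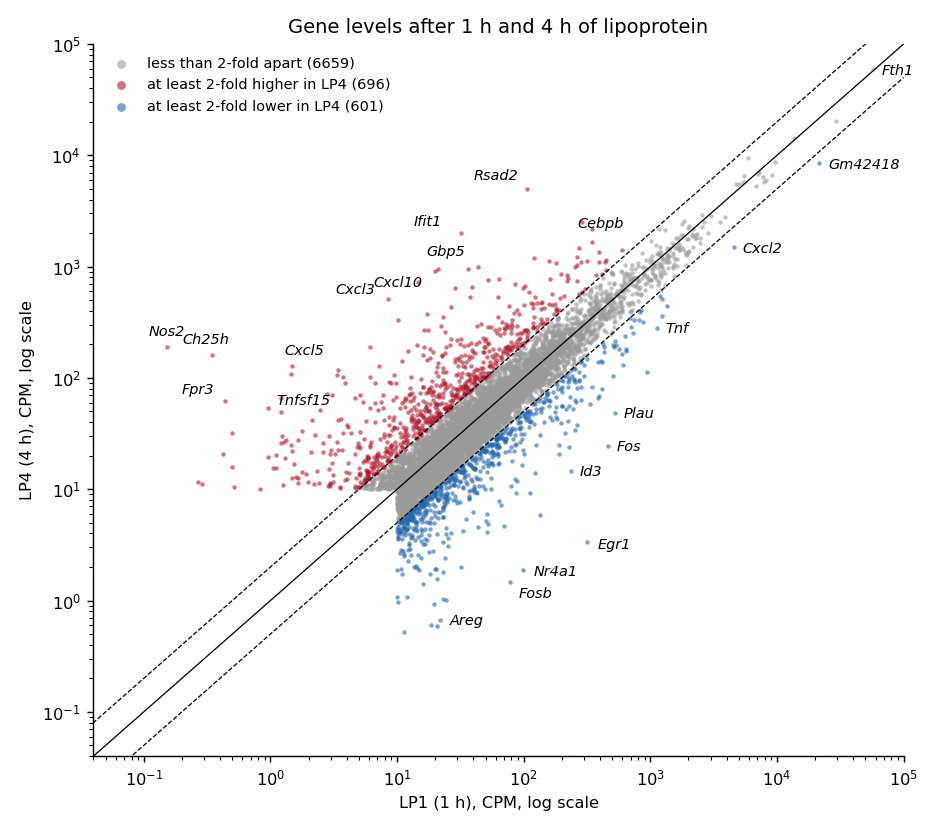
Level of each of 7956 genes in LP1 (horizontal axis, CPM, log scale) against LP4 (vertical axis, CPM, log scale), 1 point per gene, with the line of equal level and dashed lines at 2-fold. The 696 red points are at least 2-fold higher in LP4 and reach *Nos2* at the far left, and the 601 blue points are at least 2-fold lower and reach *Egr1*.

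Of the genes described, 12 (0.151%) were switched on, that is under 1 CPM in LP1 and at least 10 CPM in LP4. The named ones were *Nos2*, *Ch25h*, *Fpr3*, *Slfn4*, *Tnfsf15*, *Acat3*, *Trim30b*, *Tgtp2* and *Cp*, and *Gm44148*, *Gm6034* and *Gm42743* are genes without a descriptive name. *Nos2*, the inducible nitric oxide synthase that makes nitric oxide from arginine, lies on chromosome 11 at 78920787 to 78960254 of GRCm38. Its UMIs numbered 14 (Ctrl), 8 (LP1) and 11689 (LP4), or 0.39, 0.15 and 190 CPM. Its log2 ratio of 10.29 (interval 9.31 to 11.50) was the highest of any gene reaching 50 CPM at either time. *Ch25h*, which makes 25-hydroxycholesterol, had UMIs of 4 (Ctrl), 18 (LP1) and 9881 (LP4), with a log2 ratio of 8.87 (8.21 to 9.63). Both were thus near 0 in Ctrl and LP1 and abundant in LP4. *Fpr3*, a formyl peptide receptor gene, went from 23 UMIs to 3824, a log2 ratio of 7.15. *Fpr2*, whose gene overlaps *Fpr3* on the same strand, went from 112 to 2570, a ratio of 4.29, so the separate counts of the pair are uncertain. *Tnfsf15*, the cytokine TL1A, went from 50 to 3278 UMIs (5.81), and *Slfn4*, a Schlafen gene, from 26 to 1981 (6.02).

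Switched off, at 10 CPM or more in LP1 and under 1 CPM in LP4, were 6 genes (0.0754%). They were *Areg*, *Sik1*, *Usp2*, *Cass4*, *Lama3* and the non-coding *Gm11714*. *Areg*, which encodes the growth factor amphiregulin, had 1151 UMIs in LP1 and 41 in LP4, 21.9 and 0.67 CPM, beside 14.4 CPM in Ctrl. *Sik1*, a salt-inducible kinase, had 18.4 CPM in LP1, 0.60 in LP4 and 35.9 in Ctrl. All 6 were at 10 CPM or more in Ctrl as well, so their low level stood in LP4 among the 3 libraries.

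The transcripts furthest down were those of immediate early transcription factors. *Egr1*, a zinc finger factor, had 208 UMIs at 4 hours against 16545 at 1 hour, or 3.39 against 315 CPM, with a log2 ratio of -6.54 (-6.74 to -6.34). *Fosb* went from 77.9 to 1.47 CPM (-5.73) and *Nr4a1*, an orphan nuclear receptor also called Nur77, from 99.0 to 1.87 CPM (-5.72). These 3 were more than 50-fold lower after 4 hours. Of 18 described members of the list of EGR, NR4A and other immediate early genes, 13 were at least 2-fold lower and none at least 2-fold higher, with a median log2 ratio of -2.37. Among them *Egr2* had a ratio of -4.51, *Nr4a2* -3.90, *Rgs2* -3.22, *Btg2* -2.80 and *Ier2* -1.79. *Gadd45a* alone had a ratio above 0, at 0.23. These genes were not low in Ctrl. *Egr1* had 287 CPM there, *Fosb* 125 and *Nr4a1* 78.0, so Ctrl and LP1 were alike in order of size and LP4 stood below both. As a share of all UMIs, the list had 0.271% in Ctrl, 0.310% in LP1 and 0.108% in LP4.

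Members of the AP-1 dimer, built from Fos, Jun and related proteins, were split. *Fos* went from 463 to 24.6 CPM (-4.24), *Jun* from 263 to 38.1 (-2.79), *Maff* from 56.0 to 17.1 (-1.71) and *Junb* from 1231 to 509 (-1.28). In contrast *Batf* went from 2.61 to 21.4 CPM (3.04) and *Batf2* from 3.66 to 22.3 CPM (2.61). *Batf* and *Batf2* were more than 2-fold under the CPM minimum in LP1, so they could be described only if they rose past 2-fold. Of 12 described members, 5 were at least 2-fold lower and 2 higher, and the list's median of -0.21 turned positive when UMIs per cell were used unscaled. Of 6 CEBP factors, 2 were at least 2-fold higher and none lower. *Cebpb*, a factor of the late inflammatory response, stood at 98.8 (Ctrl), 346 (LP1) and 1657 CPM (LP4) (2.26), already higher in LP1 than in Ctrl. Of 14 KLF, ID and MYC factors, 2 were higher and 5 lower. *Mxd1*, an antagonist of Myc, had a log2 ratio of 3.05, whereas *Id3*, an inhibitor of helix-loop-helix factors, had -4.01, *Klf2* -3.65 and *Bhlhe40* -2.16.

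Among feedback inhibitors of signaling, some phosphatases that remove phosphate from MAP kinases were lower, *Dusp5* with a log2 ratio of -3.24, *Dusp4* with -2.30 and *Dusp1* with -1.86, as was the kinase inhibitor *Spred2* with -2.17. Of 12 described members of this list, 4 were at least 2-fold lower and none higher, with a median of -0.53, and 4 had ratios above 0, among them *Dusp16* (0.75). The 3 described suppressors of cytokine signaling, which restrain JAK-STAT signals, were higher. *Socs1* had 3.85 CPM in LP1 and 90.7 in LP4 (4.56), *Cish* 5.35 and 61.1 (3.51) and *Socs3* 98.9 and 648 (2.71). *Socs1* and *Cish* were under the CPM minimum in LP1, so they could be described only if they rose. *Socs2* was under that minimum in both libraries and was not described. Among 21 members of the NF-κB list, 4 were at least 2-fold higher and 2 lower, with a median of 0.25. *Bcl3*, a nuclear IκB protein, had a ratio of 1.98, while *Nfkbid*, another of that class, had -3.61, and *Nfkbia*, which encodes the IκBα inhibitor, went from 1926 to 1036 CPM (-0.89). *Nfkb1*, which encodes the p50 precursor, differed little, at -0.26.

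**Figure D2:**
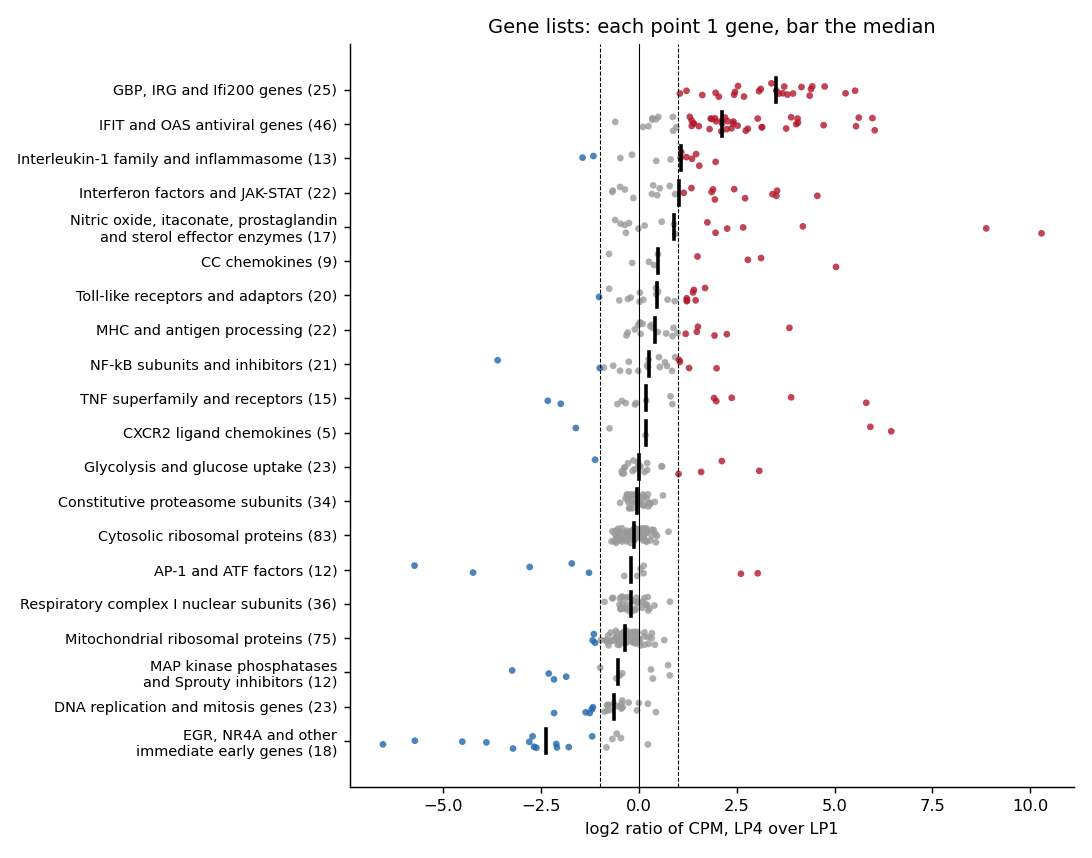
Log2 ratio of CPM in LP4 over LP1 (horizontal axis) for the described genes of 20 lists (rows, number of genes in parentheses), 1 point per gene, with the black bar at the list's median and dashed lines at 2-fold. All 25 GBP, IRG and Ifi200 genes lie right of the 2-fold line, 13 of the 18 immediate early genes lie left of it, and the 83 ribosomal protein genes stay between the lines.

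Interferon-stimulated genes were mostly higher in LP4. The GBP, IRG and Ifi200 list holds GTPases that attack vacuoles of intracellular microbes and sensors of DNA. Of its 25 described members, 25 were at least 2-fold higher in LP4, with a median log2 ratio of 3.51, beside 8.75% of all genes. Another 6 members were under 10 CPM in both libraries and were not described. Members such as *Irgm2*, more than 2-fold under 10 CPM in LP1, could be described only if they rose. Their number is not given here. *Gbp5* went from 20.9 CPM (26.0 in Ctrl) to 961 (5.52, 5.44 to 5.61), *Irgm2* from 3.77 to 101 (4.75), *Gbp2* from 22.4 to 294 (3.71) and *Ifi204* from 76.0 to 439 (2.53). The lowest of the list was *Ifi207*, at 1.05. In the list of IFIT, OAS and other antiviral genes, 36 of 46 described members were at least 2-fold higher, none at least 2-fold lower, and the median was 2.13. *Rsad2*, which encodes viperin, an enzyme that makes a chain-ending nucleotide, lies on chromosome 12 at 26442746 to 26456452. It stood at 130 (Ctrl), 107 (LP1) and 4995 CPM (LP4), with a log2 ratio of 5.55 (5.51 to 5.58), and no other gene gained as many CPM. Its neighbour *Cmpk2* on the opposite strand, a mitochondrial nucleotide kinase, had 15.5, 14.7 and 720 CPM (5.62). *Ifit1*, an RNA-binding inhibitor of translation, had 39.4, 32 and 1998 CPM (5.97). Other members were lower in size, with *Isg15* at 3.04, *Oas2* at 2.12 and *Ddx58*, the RIG-I sensor, at 2.13. *Ifi27l2a* (0.10) and *Ifi27* (-0.60) were not among those past 2-fold. Several of these families hold near-identical members (*Gbp2* and *Gbp2b*, *Ifit3* and *Ifit3b*, *Oas1a* and *Oas1g*), whose separate counts are uncertain.

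In the interferon factor and JAK-STAT list, which also holds feedback inhibitors, 11 of 22 described members were at least 2-fold higher and none lower, with a median of 1.03. *Stat2* went from 24.0 to 256 CPM (3.41), *Usp18*, which restrains the interferon receptor, from 16.4 to 189 (3.53) and *Jak2* from 126 to 470 (1.89). Of the interferon regulatory factors, *Irf2* was at least 2-fold higher (1.34), and the others named here were not, with *Irf7* at 0.79, *Irf9* at 0.53, *Irf1* at 0.36 and *Irf8* at -0.48. *Ifnb1*, which encodes interferon β, stayed under the limit of 10 CPM with 2 (Ctrl), 10 (LP1) and 96 UMIs (LP4), and *Cxcl9*, a chemokine typical of interferon γ, had 4, 0 and 135 UMIs.

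Promoters of genes in these groups were read from RefSeq (GRCm38.p6), as the 250 bases before to 50 bases after each start. The table held 549 of the 696 higher genes, 472 of the 601 lower ones and 5391 of the 6659 others. The interferon-stimulated response element (ISRE), searched on both strands as GAAA, any 2 bases and GAAA, stood in 74 promoters of the higher genes (13.5%), in 14 of the lower (3.0%) and in 186 of the others (3.45%), and in 3.99% of all 27025 genes with a promoter. It was held by 15 of the 19 GBP, IRG and Ifi200 genes in the table and by 21 of the 40 antiviral genes. The cAMP response element, TGACGTCA, stood in 6.36% of the lower genes, 2.37% of the higher and 3.88% of the others, beside 3.93% of all described genes and 2.03% of the whole table. For the NF-κB (kB) motif the shares were 11.5% of the higher and 14.8% of the lower genes, beside 12.6% of all described genes. For the AP-1 motif, TGANTCA, they were 10.9% of the higher and 8.05% of the lower genes, beside 6.44% of all described genes. Among genes at least 4-fold higher and lower, the AP-1 shares were 17.8% and 8.70%, and those of the ISRE 22.8% and 2.17%. In the same order they were 15.0% and 16.3% for the NF-κB motif and 0.556% and 6.52% for the cAMP response element. The serum response element stood in 1.46% of the higher and 1.48% of the lower genes, beside 1.51% of all described genes. At 4-fold it stood in only 1 of 180 higher genes (0.556%) and 3 of 92 lower genes (3.26%). It stood in 1 of the 13 promoters held for the 18 described genes of the immediate early list. The promoters of *Egr1*, *Plau*, *Nos2*, *Ccl5*, *Cxcl5*, *Il27* and *Rnd1* were missing and were not searched. Matches are letters in a window and not sites shown to be bound. The stretches below come from genes with the largest ratios. The ISRE and NF-κB stretches were taken only from rising genes, and those of the other motifs only from falling genes. The NF-κB motif itself was in 6 of 13 falling and 3 of 10 rising genes with the largest ratios and a promoter in the table. Each stretch is written 5′ to 3′ on the gene's strand and ends before 1 RefSeq start of the gene, with the match in capitals. A gene can have more than 1 start. The *Egr2* stretch lies after another start of that gene, and the *Gbp5* stretch lies inside the annotated span of *Gbp5*. The first 4 stretches show the ISRE (in *Ifit1*, *Rsad2* and *Gbp5* as its complement), the fifth the NF-κB motif, the sixth the serum response element, and the last the cAMP response element.
*Ifit1*, chr19:34640765-34640814, plus strand: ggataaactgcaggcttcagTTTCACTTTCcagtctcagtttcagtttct
*Rsad2*, chr12:26456543-26456592, minus strand: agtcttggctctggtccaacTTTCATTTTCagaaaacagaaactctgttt
*Gbp5*, chr3:142496749-142496798, plus strand: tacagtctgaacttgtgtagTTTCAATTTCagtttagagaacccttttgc
*Cxcl10*, chr5:92349073-92349122, minus strand: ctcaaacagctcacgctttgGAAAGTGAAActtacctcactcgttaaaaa
*Cxcl3*, chr5:90786008-90786057, plus strand: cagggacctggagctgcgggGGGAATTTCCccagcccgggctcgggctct
*Egr2*, chr10:67537777-67537826, plus strand: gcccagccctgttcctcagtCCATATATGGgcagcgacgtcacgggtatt
*Nfkbid*, chr7:30422335-30422382, plus strand: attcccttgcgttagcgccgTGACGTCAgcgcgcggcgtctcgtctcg

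Chemokines of a single receptor went in both directions. *Cxcl2*, which draws neutrophils through CXCR2, stood at 4378 (Ctrl), 4553 (LP1) and 1489 CPM (LP4) (-1.61), and *Cxcl1*, a ligand of the same receptor, had 623, 1149 and 682 CPM (-0.75). Their neighbours on chromosome 5 were higher in LP4. *Cxcl3* stood at 3.98 (Ctrl), 8.44 (LP1) and 509 CPM (LP4) (5.91), and *Cxcl5* had 2.24, 1.47 and 128 CPM (6.45). The list of CXCR2 ligands also held *Pf4*, which is not a typical ligand of that receptor. *Pf4* stood at 1982 CPM in LP1 and 2227 in LP4 (0.17). Among chemokines of other receptors, *Cxcl10*, a ligand of CXCR3, went from 19.9 to 922 CPM (5.54, 5.45 to 5.63), *Ccl5* from 10.1 to 331 (5.04), *Ccl4* from 290 to 2524 (3.12) and *Ccl3* from 266 to 750 (1.5). *Ccl2* differed by 0.49 and *Ccl7* by -0.76. Of 9 CC chemokines described, 4 were at least 2-fold higher and none lower. Of the receptors, *Ccr1* was higher (2.18) and *Cxcr4* lower (-1.39).

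Cytokines were split as well. *Tnf*, the early inflammatory cytokine, stood at 840 (Ctrl), 1119 (LP1) and 280 CPM (LP4), with a log2 ratio of -2.0 (-2.02 to -1.97). *Il6* had 1.09, 1.45 and 24.7 CPM (4.09), *Il27*, whose product acts on T cells, 3.59, 3.33 and 105 CPM (4.98), and *Il15*, a survival factor of natural killer cells, 59.9, 63.6 and 780 CPM (3.62). *Il10*, an anti-inflammatory cytokine, differed by 0.42, and *Il12b* had 139 UMIs in LP1 and 65 in LP4. Of the 17 interleukins and growth factors described, 7 were at least 2-fold higher and 3 lower. Growth factors stood on both sides, with *Inhba* at 3.81, *Edn1* at 2.93 and *Csf3* at 1.53, and *Vegfa* at -3.42 and *Csf1* at -1.12. In the interleukin-1 family and inflammasome list, 7 of 13 described members were at least 2-fold higher and 2 lower. *Il1rn*, the receptor antagonist, had a ratio of 1.96, *Il1a* 1.54, *Casp4*, the sensor of cytosolic lipopolysaccharide, 1.36, and *Il1b* 1.07, from 448 to 940 CPM. The inflammasome sensor *Nlrp3* went the other way, from 533 to 197 CPM (-1.44), as did its adaptor *Pycard* (-1.16).

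Of 22 described receptors for cytokines and growth factors, 7 were at least 2-fold higher and none lower. Ratios were above 0 for 12 of them and below 0 for 10, down to -0.96. *Il4ra* went from 28.5 to 647 CPM (4.50), *Il15ra* from 9.03 to 89.8 (3.31) and *Il13ra1* from 9.20 to 62.8 (2.77). *Tlr2*, the receptor for bacterial lipoproteins, went from 119 CPM (107 in Ctrl) to 309 CPM (1.38), its adaptor *Myd88* from 21.9 to 58.0 (1.41) and the co-receptor *Cd14* from 597 to 1399 (1.23). *Tlr4* differed by 0.02, and *Tlr13*, an endosomal receptor of bacterial ribosomal RNA, by -1.02. In the list of Toll-like receptors and adaptors, 7 of 20 members were at least 2-fold higher and 1 lower.

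In the list of nitric oxide, itaconate, prostaglandin and sterol enzymes, 7 of 17 described members were at least 2-fold higher and none lower, with 6 of the 17 below 0, among them the prostaglandin D synthase *Hpgds* (-0.61). *Ass1*, which renews arginine, went from 1.11 to 20.2 CPM (4.19), and *Slc7a2*, an arginine transporter, from 220 to 739 (1.75). *Acod1*, which makes itaconate, went from 344 to 2182 CPM (2.66), *Ptges* from 41.8 to 200 (2.26) and *Ptgs2*, the cyclooxygenase COX-2, from 78.7 to 306 (1.96). Of 28 antioxidant and metal genes, 7 were at least 2-fold higher and 1 lower. The metallothionein *Mt2* had a ratio of 3.85 and mitochondrial superoxide dismutase *Sod2* 1.94. *Lcn2*, an iron-scavenging protein that neutrophils also hold, went from 14.7 to 42.0 CPM (1.51), and without the cells rich in neutrophil, dendritic cell or fibroblast markers its ratio was 5.51. Of 15 genes of matrix proteolysis, 6 were at least 2-fold higher and 2 lower. *Mmp14* (3.16), *Mmp13* (3.09) and the inhibitor *Timp1* (3.34) were higher, whereas *Plau*, the urokinase plasminogen activator, went from 522 to 48.5 CPM (-3.43) and its receptor *Plaur* was lower too (-1.37).

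Of 23 genes of glycolysis and glucose uptake, 4 were at least 2-fold higher and 1 lower. *Pfkfb3*, which makes the activator of phosphofructokinase, went from 26.7 to 225 CPM (3.08), the factor *Hif1a* from 123 to 534 (2.12) and hexokinase *Hk2* from 51.1 to 154 (1.59), whereas *Gapdh* went from 1189 to 547 CPM (-1.12). The median of the 23 glycolysis genes was -0.01, a value that turned positive under TMM, median-of-ratios, unscaled UMIs per cell and the mean of cell shares. It also turned positive with no mitochondrial limit. The same held without cells rich in cycling markers, and without those rich in neutrophil, dendritic cell or fibroblast markers. For antigen presentation, *Nlrc5*, the class I transactivator, had a ratio of 3.85, *Tap2* 2.25, *B2m* 1.48 and *Tapbp* 1.20, and 6 of 22 members were at least 2-fold higher and none lower, while *H2-DMa* of class II had -0.32. Of the resting macrophage genes, 30 were past 2-fold in neither direction, beside 6659 of all 7956 described genes. Of 33 described, 1 was at least 2-fold higher (*Axl*, 1.14) and 2 lower, among them *Slc9a9*, a sodium-proton exchanger (-1.85). Ratios of 22 of the 33 were below 0. Their median was -0.31 on the CPM scale and 0.04 on unscaled UMIs per cell.

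Large families of housekeeping genes differed by little. None of 83 cytosolic ribosomal protein genes, 36 nuclear complex I subunits, 18 ATP synthase subunits, 34 proteasome subunits or 13 mitochondrial genome RNAs was past 2-fold, and the medians were -0.12, -0.21, 0.01, -0.04 and 0.20. On unscaled UMIs per cell, the first 2 and the proteasome median turned positive, the last also under TMM and median-of-ratios scaling. The mitochondrial genome RNAs were themselves used to choose the kept cells, so their ratios depend on that limit. Their median was 0.25 without a mitochondrial limit and 0.08 with a limit of 4%. Mitochondrial ribosomal proteins, on the CPM scale, had a median of -0.35, with 63 of 75 below 0 and 3 at least 2-fold lower. The list of DNA replication and mitosis genes had a median of -0.65, with 21 of 23 below 0 and 5 at least 2-fold lower. These 5 were the replication licensing genes *Cdt1* (-2.17), *Mcm7* (-1.36), *Mcm3* (-1.26), *Mcm2* (-1.20) and *Mcm4* (-1.18), while *Mki67* (0.43) and *Pcna* (0.23) were above 0. The 10 cycling markers together had 483 CPM in LP1 and 494 CPM in LP4. Cells rich in these markers were 258 (5.09%) in LP1 and 172 (3.68%) in LP4. Among those cells alone the median of the replication and mitosis list was -0.23.

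**Figure D3:**
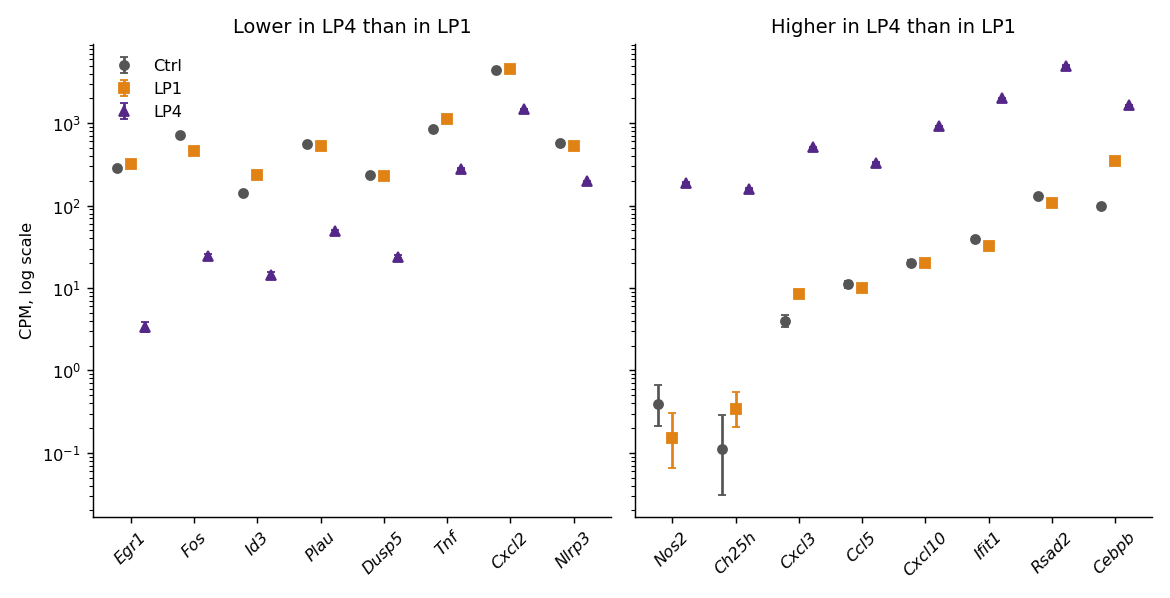
Level (vertical axis, CPM, log scale) of 16 genes in Ctrl (circles), LP1 (squares) and LP4 (triangles), with exact Poisson 95% intervals that cover counting error only and are often smaller than the symbols. In the left panel Ctrl and LP1 lie near each other and LP4 below both. In the right panel LP4 lies above both, and *Cebpb*, *Cxcl3* and, on few UMIs, *Ch25h* are higher in LP1 than in Ctrl.

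How the differences were spread over cells was described with 2000 UMIs drawn per cell, so that 13 shallower cells of LP1 and 45 of LP4 fell away. *Rsad2* was then seen in 6.61% of 5052 LP1 cells (5.94 to 7.33) and 91.8% of 4625 LP4 cells (91.0 to 92.6), and *Ifit1* in 4.20% and 85.4%. These are shares of cells with a UMI, to which free RNA in the droplets can add, and its part was not tested. Without thinning the shares of *Ifit1* were 12.2% and 97.1%. *Cxcl10* was seen in 2.04% and 50.8% of thinned cells, *Cxcl3* in 1.43% and 41.5%, *Ccl5* in 1.09% and 25.7%, and *Il6* in 0.337% and 4.48%. *Ccl4*, another chemokine, was seen in 26.4% and 81.6%, and a share also depends on a gene's level. *Nos2* had a UMI in 0 of 5052 thinned LP1 cells and in 19.6% of LP4 cells (18.5 to 20.8). With the count of 0 set to 3, which is not an exact interval, the LP1 limit was 0.0594% of cells with a UMI at this depth. That sets no limit on cells that express it. Unthinned, the shares of cells with a *Nos2* UMI were 0.118% and 36.2%. In the 27 LP4 cells rich in neutrophil markers, *Nos2* had a UMI in 0 cells, *Ifit1* in 2 (7.41%) and *Rsad2* in 5 (18.5%). For *Nos2* the limit, with 0 again set to 3, was 11.1% of cells with a UMI. The median depth of these 27 cells before thinning was 9220 UMIs, beside 11838 over all thinned LP4 cells.

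Lower transcripts were seen in fewer cells of LP4. *Egr1* was seen in 41.4% of LP1 cells and 0.584% of LP4 cells, *Fos* in 53.2% and 3.74%, *Id3* in 32.9% and 2.79%, and *Plau* in 50.4% and 7.50%. *Tnf* went from 79.2% to 31.9% and *Cxcl2* from 98.6% to 65.1% of cells. *Egr1* and *Fos* were thus nearly absent after 4 hours at this depth, whereas *Cxcl2* was still seen in a majority of cells.

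**Figure D4:**
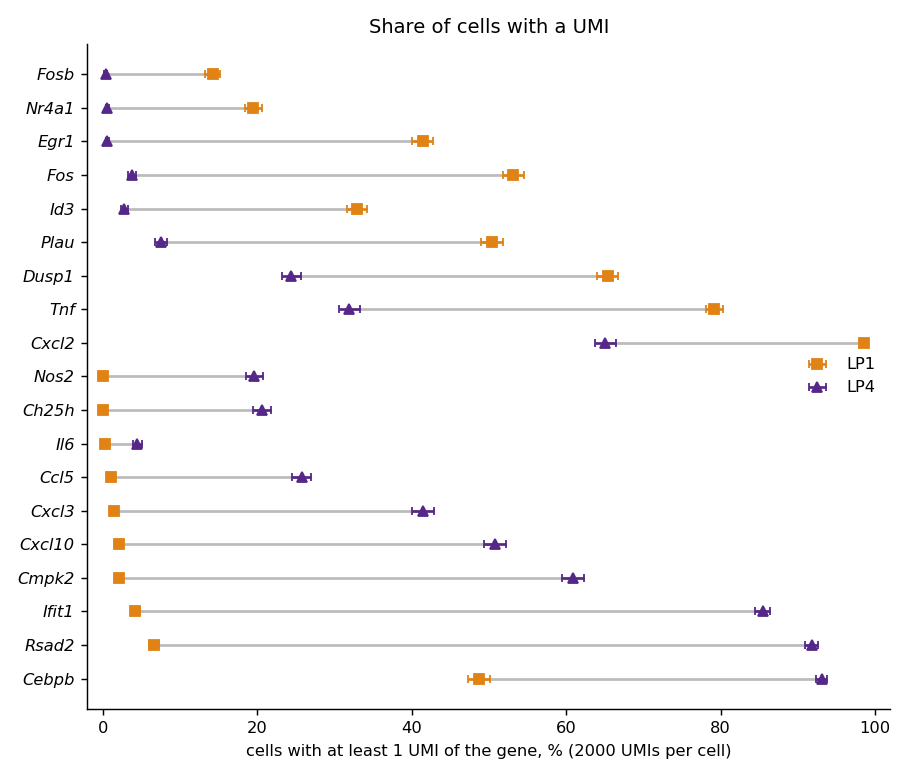
Share of cells with at least 1 UMI of a gene (horizontal axis, percent) in LP1 (squares) and LP4 (triangles) at 2000 UMIs per cell, for 19 genes (rows), with exact binomial 95% intervals. The upper 9 genes move left, with *Egr1* at 0.584% in LP4, and the lower 10 move right, up to 91.8% for *Rsad2* and 93.1% for *Cebpb*.

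Summed over a list, the same cells can be placed on 1 scale. Antiviral genes of the IFIT and OAS list took a median of 0.45% of a cell's UMIs in LP1 (5th to 95th percentile 0.15 to 1.15) and 2.10% in LP4 (0.90 to 4.15), and 87.7% of LP4 cells lay above the 95th percentile of LP1. For the GBP, IRG and Ifi200 list the medians were 0.10% and 0.60%, and 70.4% of LP4 cells lay above that limit. In Ctrl the antiviral median was 0.65% (0.2 to 1.55), higher than in LP1, and the GBP, IRG and Ifi200 median was 0.1%. From LP1 to LP4 the shift covered the bulk of the cells in both lists. For the immediate early list the medians were 0.30% and 0.10%, and cells without any such UMI were 1.43% in LP1 and 19.2% in LP4. The CXCR2 ligand list, with *Pf4* in it, had medians of 0.75% and 0.40% but the same 95th percentile of 1.6%. LP4 thus held more cells with few UMIs of this list and about as many with a high share. *Pf4* made up a large part of the list's UMIs, and the shares without it were not computed.

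**Figure D5:**
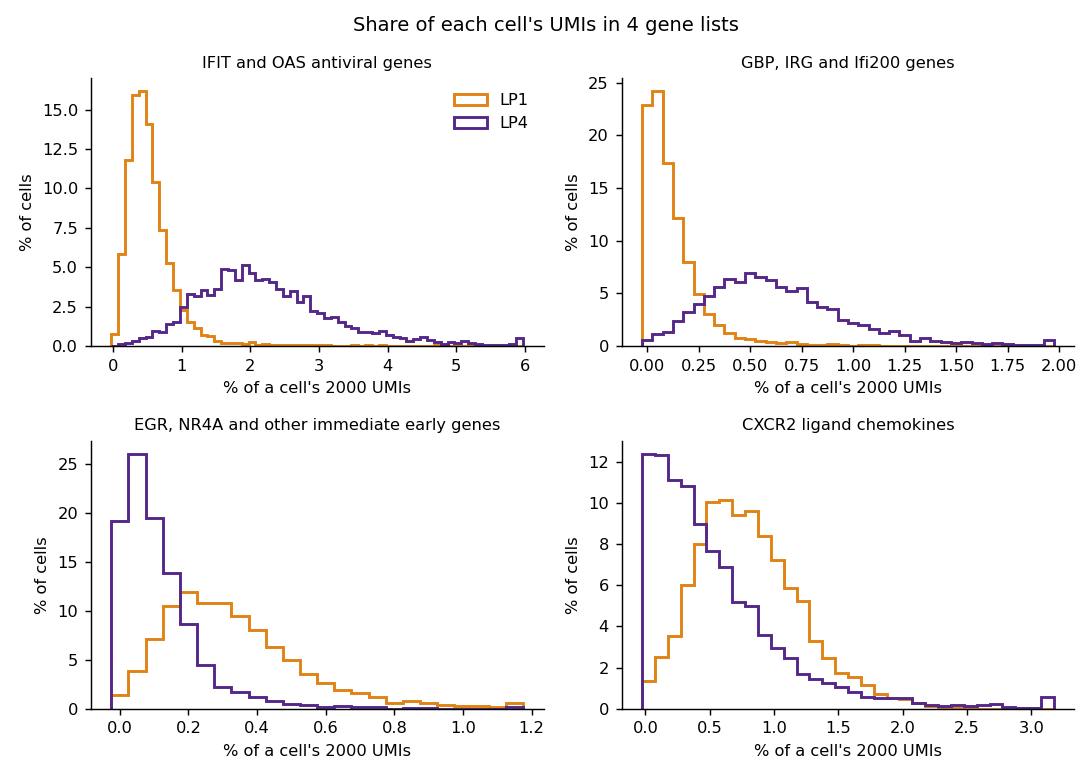
Distribution over cells of the percent of a cell's 2000 UMIs (horizontal axis) that fall in 4 gene lists, as percent of cells (vertical axis), for LP1 and LP4; the last bin holds all higher values. The antiviral and GBP distributions of LP4 lie to the right of those of LP1, with medians of 2.10% beside 0.45% and 0.60% beside 0.10%, and the immediate early distribution lies to the left.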

How the data were processed

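The authors counted UMIs with Cell Ranger on mm10 and deposited the resulting UMI counts of genes in barcodes, not normalized; the methods name an earlier release than the 7.1.0 of the submitters' processing notes. Whether reads in introns were counted, and whether strand was used, is not given in the sources used here, so genes overlapping another (*Olfr56* with *Ifi47*, *Cxcl10* with *Art3*, *Il27* with *Apobr*) are uncertain. From the counts, CPM sums over kept cells were computed with exact conditional binomial intervals for ratios, Poisson for CPM and binomial for shares, and 0 counts set to 3. Depth was 52475723 UMIs in LP1 and 61402275 in LP4; the spread between cultures was not measured. Genes were named by rule: the 15 largest ratios and 10 largest CPM differences in each direction (at least 50 CPM for ratios; ribosomal protein, mitochondrial and unnamed genes were not eligible), leading list members, and genes the paper names. The values of *Ifnb1*, *Il12b*, *Cxcl9*, *Il10*, *Tlr4*, *Ccl2*, *Nfkb1*, *Pf4* and the *Irf* genes, and of *Gm42418*, were chosen after they were seen. The members and lists were chosen with earlier results of these data known. Limits for marker-rich cells were set after seeing the data. Thinning used a seed of 20. Software was R 4.3.3, pandas 2.3.3, scipy 1.17.1, numpy 2.4.6 and Python 3.11.15; edgeR 4.0.16 (TMM) and DESeq2 1.42.0 (median-of-ratios) served for scaling only. Functions were tested on simulated data. For some genes chosen by that rule, no result is given here.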

Additional observations from a re-analysis of the deposited data

How the results depend on the processing

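With 1 library per time, no alternative bears on the spread between cultures. No paired analysis was possible because each time has 1 library. Of 401 named genes, 291 were past 2-fold, and none of these changed direction under any of 13 alternative cell filters and scalings. TMM, median-of-ratios, unscaled UMIs per cell and CPM without mitochondrial and ribosomal protein genes each moved all log2 ratios by 1 amount, at most 0.34. These scalings could therefore not reverse a gene past 2-fold. Of all 401, 18 changed direction on unscaled UMIs per cell, 9 in the cells rich in cycling markers alone and at most 4 under any other alternative. Of the 291, 25 were no longer past 2-fold on unscaled UMIs per cell. In the cells rich in cycling markers alone, an alternative added after seeing the data, 47 were no longer past it. In those 258 and 172 cells, 19 of 8424 genes were switched on in place of 12 of 7956. On unscaled UMIs per cell, the genes at least 2-fold higher and lower numbered 1248 and 321 of 8237. The median of all genes was then 0.30, that of DNA replication genes -0.30, of mitochondrial ribosomal proteins -0.0039 and of cytosolic ribosomal proteins 0.22. With a minimum of 50 CPM the numbers were 427 and 249 of 3663 genes, beside 696 and 601 of 7956, and the mitochondrial ribosomal median was -0.44. With 20 UMIs in the 2 libraries as the only minimum they were 1586 and 1813 of 14506 genes. DNA replication genes had a median of -0.85 with a mitochondrial limit of 4%, -0.92 with the mean of cell shares and -0.23 in cycling cells alone, in which mitochondrial ribosomal proteins had -0.21. Median-of-ratios scaling gave cytosolic ribosomal proteins -0.056. By construction, unscaled UMIs per cell added 0.34 to log2 ratios and median-of-ratios scaling 0.065, and each minimum changed which genes were counted. The cause of the other shifts was not tested. Leaving out possible doublets, the cells over the 95th percentile of UMIs, gave 703 genes higher and 621 lower of 7926. Shares of cells with a UMI depended on depth: *Nos2* was seen in 13.2% of LP4 cells thinned to 1000 UMIs.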

Other observations

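Higher genes lay next to each other in places. Counting runs of at least 3 neighbouring described genes that were all at least 2-fold higher in LP4, with gaps of at most 200 kb, there were 23 runs with 91 genes, beside 7 runs with 21 genes that were lower. The longest, on chromosome 1 at 173350879 to 174031810, held 10 genes from *Aim2* to *Ifi205*, the sensors of the Ifi200 family. Another on chromosome 11 at 48861968 to 49135387 held 8, among them *Irgm1*, *Tgtp2* and *Ifi47*, and *Olfr56*, an olfactory receptor gene by name that overlaps *Ifi47* on the same strand and had a log2 ratio of 6.22. The *Ifit* genes on chromosome 19 and the *Gbp* genes on chromosome 3 made runs of 5 genes each, and the *Trim30* genes on chromosome 7 a run of 4. Many of these neighbours are copies of 1 another, and their separate counts are uncertain.

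Receptors for small mediators were not part of the account above. Of 21 described purinergic, lipid and amine receptors, 7 were at least 2-fold higher and 5 lower. *Hcar2*, a receptor for butyrate and hydroxybutyrate, had a log2 ratio of 2.68, *Ptger2* for prostaglandin E2 2.35 and *Adora2b* for adenosine 1.86, whereas *Ptger4*, also for prostaglandin E2, had -1.16, *P2ry1* for ADP -2.86 and *Gpr183* for oxysterols -3.27. *Gpr183* went from 50.2 to 5.20 CPM while *Ch25h*, an enzyme on the path to its ligands, went from 0.34 to 161 CPM. Among death regulators, *Bcl2* went from 33.3 to 4.22 CPM (-2.98) and *Bcl2l11* had -1.39, whereas *Mlkl*, the executor of necroptosis, had 2.34 and *Bcl2a1d* 1.23. *Per1*, a clock gene, had -3.69, and *Nr3c1*, the glucocorticoid receptor, 1.35.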
